A study of Homo sapiens with 31 samples.

Results

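The tubulin genes described here are 3 alpha-tubulins (TUBA1B, TUBA1C and TUBA1A), 6 beta-tubulins (TUBB, TUBB4B, TUBB2A, TUBB2B, TUBB6 and TUBB3) and 1 gamma-tubulin (TUBG1). Each gene was represented by 1 Ensembl transcript, chosen by its identifier and by a listed length equal to the protein's length in amino acids minus 9. The transcripts were ENST00000336023 (TUBA1B), ENST00000301072 (TUBA1C), ENST00000301071 (TUBA1A), ENST00000327892 (TUBB), ENST00000340384 (TUBB4B), ENST00000333628 (TUBB2A), ENST00000259818 (TUBB2B), ENST00000317702 (TUBB6), ENST00000315491 (TUBB3) and ENST00000251413 (TUBG1). All 10 were found among 227264 listed transcripts, of which 94734 had at least 1 count. After transcripts with the same counts and neighbouring isoforms had been reduced to about 1 per locus, 35500 rows remained, the 10 members among them.

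All libraries were made from the line HEK293 T-REx, derived from human embryonic kidney and carrying the tetracycline repressor for inducible expression. Ribosome profiling, which sequences the RNA fragments that ribosomes protect from nuclease (footprints), was done in naive cells and in cells with a knockout of either helicase gene (EIF4A1 KO, EIF4A2 KO). Each of the 3 genotypes had 2 libraries from DMSO controls, 1 from 30 min of 1 µM PP242 and 1 from 10 µM PP242. RNA-seq covered naive and EIF4A1 KO cells (2 libraries each). RNA pulldown used cells expressing SBP-eIF4A1 or SBP-eIF4A2, a factor fused to a streptavidin-binding peptide, with 2 input and 2 pulldown libraries for each protein. SBP-eIF4A1 cells were also sequenced 72 h after Control siRNA (2 inputs, 2 pulldowns) or LARP1 siRNA (2 inputs, 1 pulldown). The EIF4A2 KO, SBP-eIF4A2 and RNA-seq libraries were deposited as a separate block from the others, and no label gives a batch. The labels do not say how many clones a knockout stands for, whether replicates are separate cultures, or when libraries were prepared, so the spread between replicates may be technical.

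Alpha- and beta-tubulin form the dimers that polymerise into microtubules, and gamma-tubulin sits in the ring complexes that nucleate them. Vertebrate cells hold several alpha and beta genes whose proteins are close to identical, with TUBB3 best known from neurons. Cells adjust tubulin mRNA to the pool of free dimers: TTC5 recognises the first residues of a nascent alpha or beta chain and sets off decay of the mRNA being translated. eIF4A1 and eIF4A2 are RNA helicases of the cap-binding complex. PP242 inhibits the kinase mTOR, and mTORC1 inhibition represses above all mRNAs that begin with a 5′ terminal oligopyrimidine (TOP) tract, which LARP1 binds.

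Because the TOP tract is defined at the first base of an mRNA, the annotated starts of the 5 members with the highest RNA level per length are shown, from RefSeq on GRCh38.p14. Each line runs 5′ to 3′ on the gene's strand, with 20 bases before the start in lower case and the first 10 bases from the start in capitals.
TUBA1B, chr12:49131386-49131415, minus strand: tccagcgccggccccgccctAGTGCGTTAC
TUBA1C start 1, chr12:49227906-49227935, plus strand: aatctaattaaagtagaagaAAGTGAACAA
TUBA1C start 2, chr12:49227999-49228028, plus strand: tgctttgtgtgcttggaattAGATCCTTCA
TUBA1C start 3, chr12:49265062-49265091, plus strand: tcggggccggccaccctttcACTACTTCTC
TUBA1A, chr12:49189071-49189100, minus strand: gccgcatccgcctatgtgccGCAGGTTCTC
TUBB start 1, chr6:30720332-30720361, plus strand: ccctcccctctcctttctccCTCTCAGAAC
TUBB start 2, chr6:30721618-30721647, plus strand: gcggcggcagctctttcctcAGACCCCCAG
TUBB4B, chr9:137241267-137241296, plus strand: gttggcggagcgtcggttgtAGCACTCTGC
TUBB start 1 begins with C and 4 further pyrimidines (C or T), the form of a TOP tract, and none of the other 7 starts shown does. Over all 10 members, 1 of 15 annotated starts had this form, against 4.07% of 35116 starts of 27305 genes, searched on the gene's strand only. C followed by 4 pyrimidines began within 10 bases on either side of the start in 8 of the 15 member starts, against 33.5% of all starts. That window includes bases before the start, which are not part of the annotated mRNA. An annotated start is not a measured 5′ end, and a match of letters is a description only. The 3 alpha genes lie within 49127782 to 49274600 on chromosome 12, and TUBB2A (3153666 to 3157544) and TUBB2B (3224277 to 3227653) are both on chromosome 6.

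The deposited values were raw counts per transcript. The total over 1 row per locus was 2519829 to 6434253 counts in the 12 ribosome profiling libraries, 19730609 to 21663868 in RNA-seq, 12650183 to 17671595 in the pulldown experiment without siRNA and 11907864 to 16810270 in that with siRNA. The 10 members together took 1.29% to 1.645% of footprint counts and 0.723% to 0.911% of RNA-seq counts. Many transcripts carried identical counts (77343 distinct among 94734), so that reads were credited to more than 1 transcript. The counting tool is not given in the sources used here, and reads that fit several paralogs may be credited to each, so the members are not 10 independent measurements. Replicates differed beyond counting noise in every group: the chi-square per degree of freedom was 1.38 to 2.32 in 8 groups, 7.33 for the SBP-eIF4A2 pulldown, 8.19 for the Control siRNA inputs, 15 for the Control siRNA pulldowns and 17.4 for the LARP1 siRNA inputs. The files pair no transcript with a gene name, so the levels of EIF4A1, EIF4A2 and LARP1 were not checked against the labels. Levels below are counts scaled to a common library size (CPM), with TMM factors within an experiment. Changes are on the log2 scale ± SE from edgeR's quasi-likelihood test, called at a Benjamini-Hochberg adjusted p under 0.05 over all rows tested. TMM centres most transcripts near no change, so each change is relative to the bulk of the transcripts. Shares of all rows called are given beside counts of members. Those rows were not matched to the members for level, on which a call also depends.

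TUBA1B was the most abundant member in naive cells on both scales. Per 100 codons, its RNA level was 717 CPM in each RNA-seq library, ahead of TUBA1C (383 and 381), TUBA1A (357 in each) and TUBB (279 and 284). TUBB4B followed at 115 and 123, TUBB2B at 75.7 and 80.1, and TUBB2A at 60.7 and 65.8. TUBG1 (23.2 and 24.5), TUBB6 (22.6 and 24.2) and TUBB3 (22.0 and 23.1) overlapped with each other at the low end, while each step above them was larger than the spread between replicates. The order of footprint levels per 100 codons was similar at the top, but TUBB moved up: TUBA1B had 1038 and 1047 CPM, TUBA1C 819 and 825, TUBB 801 and 807, and TUBA1A 739 and 746. TUBB3 had 58.0 and 66.4 CPM of footprints, above TUBG1 (36.1 and 39.1) and TUBB6 (32.6 and 36.7).

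The ratio of footprints to RNA in naive cells (translation efficiency) lay above the median of 25459 rows for all 10 members. Those rows passed the count filter over RNA-seq and footprint libraries together, while 19845 passed it in the DMSO footprint libraries alone. Rows with RNA and few footprints can thus be among them, and how far they lower the median was not tested. It was 3.02 times that median for TUBB, 2.92 for TUBB3, 2.28 for TUBA1C, 2.26 for TUBB4B and 2.20 for TUBA1A. TUBG1 stood at 1.67, TUBB6 at 1.57, TUBB2A at 1.56, TUBA1B at 1.54 and TUBB2B at 1.38. These correspond to percentiles of 68.7 (TUBB2B) to 92.5 (TUBB) among all rows. On the log2 scale the 4 pairings of the naive libraries spanned 1.5 to 1.54 for TUBB and 0.27 to 0.51 for TUBB2B, before the median was subtracted. Footprints are shorter than RNA-seq fragments, so the 2 assays could share reads among paralogs to a different degree. That part in the order of the members was not tested.

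Loss of EIF4A1 went with lower RNA for the main alpha- and beta-tubulins and with higher RNA for TUBB6. RNA of TUBA1B, TUBA1C, TUBA1A, TUBB, TUBB2A, TUBB2B and TUBG1 was lower in EIF4A1 KO than in naive cells, and that of TUBB6 and TUBB4B was higher. These are 9 of 10 members, where 36.5% of 25745 rows were called. The members' median change was -0.26, beside -0.0026 for all rows. The members called lower stood at percentiles of 17.4 (TUBB) to 33.0 (TUBB2A) among all rows.

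TUBA1B had 3168 and 3171 CPM of RNA in naive cells and 2394 and 2491 CPM in EIF4A1 KO cells. Both KO libraries were below both naive libraries, a change of -0.38 ± 0.03 (adjusted p = 1.0e-13, n = 2 and 2). TUBB, the main beta-tubulin here, went from 1215 and 1237 CPM to 927 and 943 CPM, without overlap (-0.39 ± 0.03, adjusted p = 5.1e-13). TUBA1C (-0.33) and TUBA1A (-0.39) fell alike, and smaller decreases were seen for TUBB2B (-0.25 ± 0.04), TUBB2A (-0.17 ± 0.04) and TUBG1 (-0.27 ± 0.05). TUBB6, a beta-tubulin of low level in these cells, had 98.5 and 106 CPM in naive cells and 140.2 and 135 CPM in KO cells. The groups did not overlap and the change was 0.43 ± 0.05 (adjusted p = 4.0e-09). TUBB4B had 500.5 and 535 CPM in naive and 544 and 554 CPM in KO cells, a change of 0.09 ± 0.03 just inside the threshold (adjusted p = 0.0448). It was lost with DESeq2 (adjusted p = 0.144) and without naive replicate 1 (0.432), KO replicate 1 (0.0687) or KO replicate 2 (0.225). TUBB3 did not pass (-0.06, interval of ±2 SE from -0.16 to 0.03).

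Footprints under DMSO were lower in EIF4A1 KO than in naive cells for every member except TUBB4B, 9 of 10 where 22.7% of 19845 rows were called and 11.9% were called lower. TUBA1B had 4588 and 4629 CPM of footprints in naive cells and 3406 and 3504 in KO cells, TUBB 3484 and 3509.6 against 2606 and 2600.5. For both genes the KO libraries lay below the naive ones (-0.42 ± 0.05 for TUBA1B, adjusted p = 6.3e-13, and -0.43 ± 0.05 for TUBB, adjusted p = 4.6e-13). TUBA1A (-0.41) and TUBA1C (-0.35) changed as much. The remaining called members, TUBB2B, TUBG1, TUBB2A, TUBB6 and TUBB3, fell by 0.31, 0.29, 0.28, 0.26 and 0.24, each with an SE of 0.06 to 0.09. The 9 called members stood at percentiles of 20.1 (TUBB) to 31.7 (TUBB3) among all rows. TUBB4B had 1069.6 and 1136 CPM in naive and 1075 and 1065 in KO cells, which overlap (-0.04, interval -0.15 to 0.06). Calls of TUBB2A, TUBB6, TUBB3 and TUBG1 depended on single libraries. Without naive DMSO replicate 2 their changes were -0.20, -0.17, -0.13 and -0.23, and their calls were lost. Without EIF4A1 KO DMSO replicate 1 the calls of TUBB6 (-0.21) and TUBB3 (-0.18) were lost, and without replicate 2 that of TUBG1 (-0.26). DESeq2 did not call TUBB6, TUBB3 or TUBG1, and TUBB6 was not called with library totals (-0.22).

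Footprint changes that go past the RNA change, tested as the interaction of assay and genotype, were near 0 for the alpha-tubulins (-0.05 to -0.03), TUBB (-0.05 ± 0.05) and TUBG1 (-0.04 ± 0.09). For TUBA1B the interval was -0.15 to 0.05. TUBB6 was the 1 member called, where 9.48% of 25459 rows were: its footprints went from 142 and 160.3 CPM in naive cells to 123 and 131 CPM in KO cells while its RNA was higher. The groups did not overlap in either assay, and the difference was -0.70 ± 0.10 (adjusted p = 2.1e-08), or 1.62-fold less footprint per RNA. TUBB4B (-0.14), TUBB3 (-0.19) and TUBB2A (-0.13) did not pass. Without naive DMSO replicate 1 these 3 were called as well, at -0.23 (adjusted p = 0.0037), -0.33 (0.0047) and -0.25 (0.013).

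**Figure D1:**
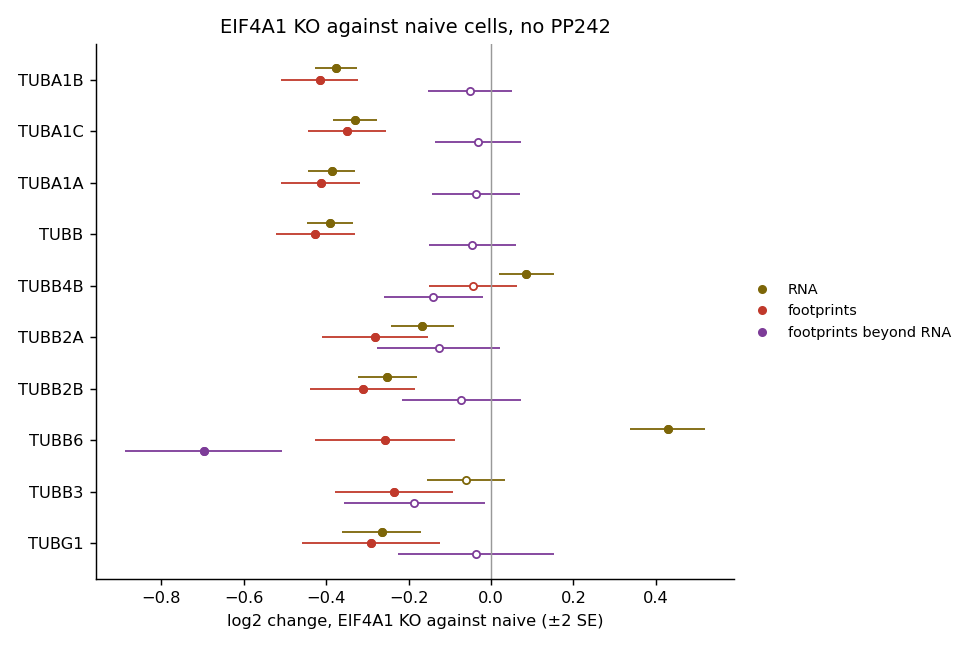
Log2 change in EIF4A1 KO against naive cells without PP242, for RNA (2 libraries each), footprints (2 libraries each) and footprints beyond RNA, with bars of ±2 SE. Filled points were called and open points were not. RNA and footprints of the alpha genes and TUBB lie together between -0.43 and -0.33, whereas TUBB6 lies at 0.43 for RNA and -0.26 for footprints.

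In EIF4A2 KO cells 1 of the 10 members, TUBB4B, differed from naive cells in DMSO footprints, where 8.04% of rows were: it had 991 and 918 CPM in EIF4A2 KO cells, below both naive libraries (-0.21 ± 0.05, adjusted p = 0.0031). That call was lost without naive DMSO replicate 2 (adjusted p = 0.119) or EIF4A2 KO DMSO replicate 2 (0.152). TUBA1B had 4433 and 4231 CPM, a change of -0.09 with an interval from -0.18 to 0.0031, and TUBB 3279 and 3264 CPM (-0.10, interval -0.19 to -0.0023), neither of them called. TUBB6 had 177 and 172 CPM, above both naive libraries, but did not pass (0.20 ± 0.07, adjusted p = 0.0686). It passed without naive DMSO replicate 2 (0.29, adjusted p = 0.0388) and with scaling to library totals (0.22).

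In the direct test of the knockouts, 8 members were lower in the EIF4A1 KO than in the EIF4A2 KO libraries and TUBB4B was higher, where 22.6% of rows were called. TUBB6 (-0.46 ± 0.08), TUBB2B (-0.44 ± 0.06) and TUBB2A (-0.35 ± 0.06) differed most, and the 3 alpha genes and TUBB differed by -0.34 to -0.29. TUBB3 was lower by -0.22 ± 0.07 and TUBG1 was not called (-0.11 ± 0.09). TUBB4B was higher by 0.16 ± 0.05 (adjusted p = 0.0161). That call was lost without EIF4A1 KO DMSO replicate 1 (adjusted p = 0.114), EIF4A1 KO DMSO replicate 2 (0.0581) or EIF4A2 KO DMSO replicate 2 (0.236), and that of TUBB3 without EIF4A1 KO DMSO replicate 1 (0.230) or EIF4A2 KO DMSO replicate 1 (0.183) and with DESeq2. The 3 comparisons share the 6 DMSO libraries. In those with the EIF4A2 KO, genotype and block of deposit cannot be told apart.

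Tubulin footprints fell under PP242 in naive and EIF4A2 KO cells. The log2 change was higher in EIF4A1 KO than in naive cells for 6 members, and than in EIF4A2 KO cells for 7. Higher here means a smaller fall, or a value above 0. Each dose was sequenced once per genotype, and an earlier analysis of these data had found the 2 doses alike. The 2 doses were therefore pooled against the 2 DMSO libraries, and they are not replicates of a dose. Pooling was thus chosen with the likeness of the doses known, and that likeness also enters the spread behind each adjusted p. In naive cells 7 of 10 members fell and none rose, where 9.38% of 20506 rows were called and 5.71% were called lower. In EIF4A2 KO cells 9 fell, where 11.7% of rows were called and 7.11% were called lower. In EIF4A1 KO cells TUBB alone fell, where 6.02% were called. The members' medians were -0.34 in naive, -0.34 in EIF4A2 KO and -0.0036 in EIF4A1 KO cells, and the medians of all rows were 0.0047, 0.014 and 0.0092. Among all rows the members' changes stood at percentiles of 10.1 (TUBB2B) to 39.9 (TUBB4B) in naive cells. In EIF4A2 KO cells they stood at 6.47 (TUBB2B) to 36.6 (TUBB4B).

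TUBA1B footprints in naive cells were 4588 and 4629 CPM under DMSO, 3634 CPM at 1 µM and 3605 CPM at 10 µM. Both PP242 libraries were below both DMSO libraries and differed little from each other (-0.35 ± 0.05, adjusted p = 6.1e-07). In EIF4A2 KO cells the same gene had 4433 and 4231 CPM under DMSO, 3405 at 1 µM and 3388 at 10 µM (-0.35 ± 0.05, adjusted p = 4.05e-07). In EIF4A1 KO cells it had 3406 and 3504 CPM under DMSO, 3593 at 1 µM and 3478 at 10 µM, which overlap (0.03, interval -0.07 to 0.14). Its DMSO level in EIF4A1 KO cells was thus already below its level in PP242-treated naive cells. The same held for TUBA1C, TUBA1A and TUBB. TUBB2A had 322 and 345 CPM in the EIF4A1 KO DMSO libraries, above its 295 and 307 CPM in PP242-treated naive cells. TUBB2B likewise had 346 and 369 against 309 and 316 CPM, and the other members overlapped. TUBA1C and TUBA1A gave similar values, with changes of -0.32 and -0.36 in naive cells, -0.36 and -0.32 in EIF4A2 KO cells, and -0.00045 and 0.04 in EIF4A1 KO cells.

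TUBB2B showed the largest decrease among the members in naive and EIF4A2 KO cells. It had 419 and 466 CPM in naive cells under DMSO, 309 at 1 µM and 316 at 10 µM (-0.51 ± 0.07, adjusted p = 1.4e-08). In EIF4A2 KO cells its level went from 488 and 483 CPM to 327 and 305 (-0.62 ± 0.07, adjusted p = 4.6e-12). In EIF4A1 KO cells it was 346 and 369 CPM under DMSO and 355 and 334 under PP242, with overlap (-0.05, interval -0.19 to 0.09). TUBB2A, which shares most of its sequence with TUBB2B, changed by -0.43, -0.52 and -0.01 in naive, EIF4A2 KO and EIF4A1 KO cells.

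TUBB fell in all 3 genotypes, the only member called in EIF4A1 KO cells. Naive cells had 3484 and 3509.6 CPM under DMSO, 2679.6 at 1 µM and 2697 at 10 µM (-0.38 ± 0.05). EIF4A1 KO cells had 2606 and 2600.5 CPM under DMSO, 2266 at 1 µM and 2203 at 10 µM, without overlap (-0.22 ± 0.05, adjusted p = 0.0049). In EIF4A2 KO cells the change was -0.29 ± 0.05. The call in EIF4A1 KO cells was lost without DMSO replicate 1 (adjusted p = 0.0687) or the 10 µM library (0.0661).

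TUBB4B footprints were not called under PP242 in any genotype. They were 1069.6 and 1136 CPM under DMSO and 1006 and 1085 CPM under PP242 in naive cells, so that the groups overlap (-0.08, interval -0.20 to 0.04). The changes in EIF4A1 KO and EIF4A2 KO cells were -0.02 and -0.10. TUBB3 fell in naive (-0.28 ± 0.07, adjusted p = 0.0065) and EIF4A2 KO cells (-0.43 ± 0.07), the first of these lost without naive DMSO replicate 2 (0.318) or the naive 1 µM library (0.0983). TUBB6 and TUBG1 did not pass in naive cells (-0.21 for each, adjusted p = 0.0962 and 0.109), although TUBG1 did without the 10 µM library (0.0364). In EIF4A2 KO cells TUBB6 fell by 0.30 ± 0.08 and TUBG1 by 0.24 ± 0.08, calls that were lost without the 10 µM library for TUBB6 (0.0938) and without DMSO replicate 2 (0.400) or the 1 µM library (0.406) for TUBG1. In EIF4A1 KO cells TUBB6 had 123 and 131 CPM under DMSO and 146 and 147 under PP242, higher without overlap but not called (0.21 ± 0.09, adjusted p = 0.166).

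**Figure D2:**
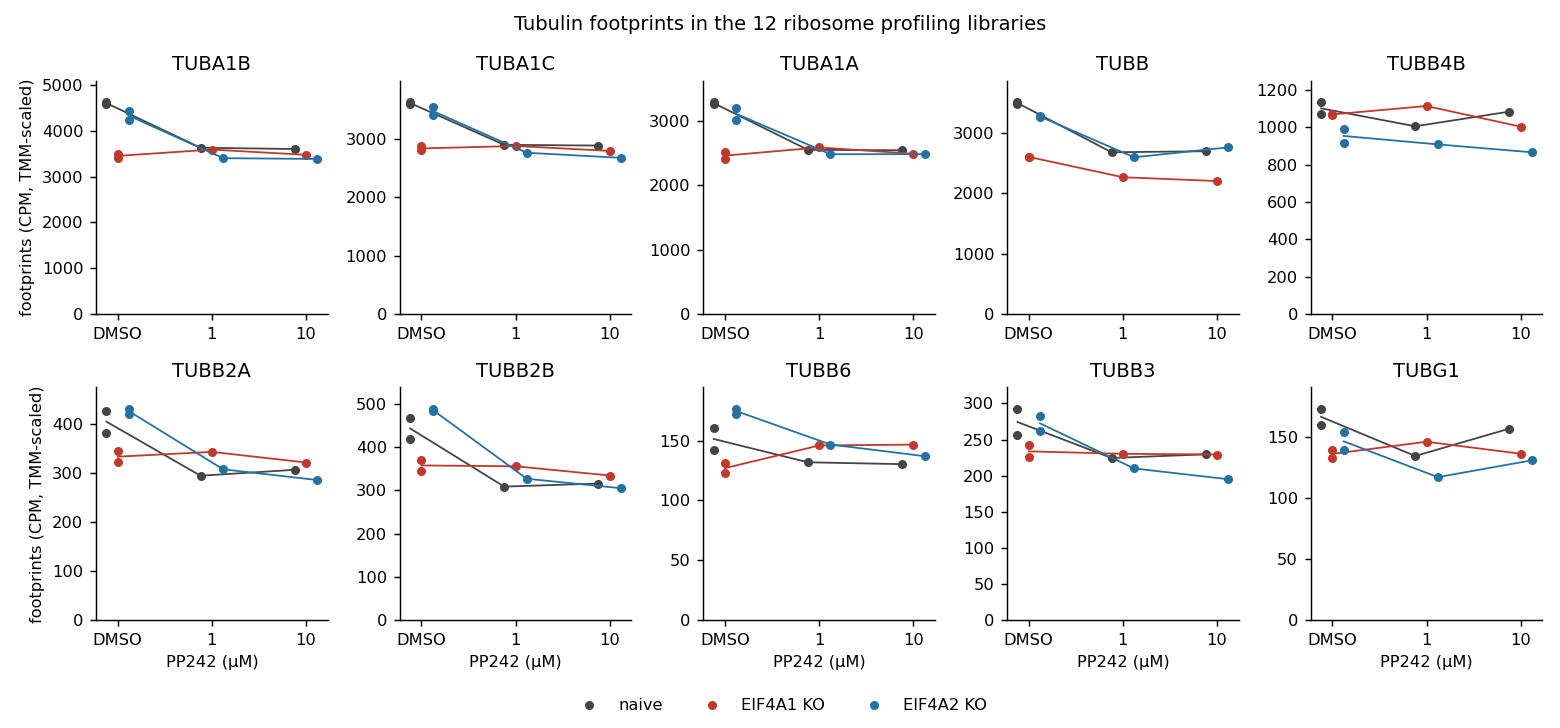
Footprint level (CPM after TMM scaling) of each tubulin gene in the 12 ribosome profiling libraries, with DMSO, 1 µM and 10 µM PP242 on a categorical axis. Points are single libraries and lines join the DMSO mean to the PP242 libraries. TUBA1B starts at 4588 and 4629 CPM in naive cells and ends at 3605 CPM, while its EIF4A1 KO libraries stay between 3406 and 3593 CPM.

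The difference between genotypes in the PP242 response was tested directly. Between EIF4A1 KO and naive cells 6.07% of all rows were called, 3.62% with a higher log2 change in EIF4A1 KO cells. Of the 10 members 6 were called, all of them higher in EIF4A1 KO cells. These were TUBA1B (0.38 ± 0.08, adjusted p = 0.00032), TUBA1C (0.32 ± 0.08), TUBA1A (0.41 ± 0.08), TUBB2A (0.42 ± 0.10), TUBB2B (0.45 ± 0.10) and TUBB6 (0.41 ± 0.12, adjusted p = 0.0203). The difference was 0.16 ± 0.08 for TUBB, 0.25 ± 0.11 for TUBB3, 0.25 ± 0.12 for TUBG1 and 0.06 ± 0.09 for TUBB4B, none of them called. With the alpha paralogs summed to 1 row it was 0.37 ± 0.07 (adjusted p = 0.00031), and with the beta paralogs summed 0.20 ± 0.07 (adjusted p = 0.105). Against EIF4A2 KO cells 7 members differed in the same direction, the same 6 genes and TUBB3 (0.40 ± 0.10), where 6.23% of rows were called and 3.71% in this direction. TUBB2B differed most (0.57 ± 0.09, adjusted p = 1.8e-05). Here the summed alpha row differed by 0.37 ± 0.07 (adjusted p = 0.00030), and the summed beta row, which TUBB leads, was not called (0.18 ± 0.07, adjusted p = 0.141).

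Between EIF4A2 KO and naive cells no member's response was called, and neither were more than 14 of 20506 rows (0.0683%), although 1314 rows had an unadjusted p below 0.05. DESeq2 called no member either. The intervals were -0.15 to 0.15 for TUBA1B and -0.30 to 0.07 for TUBB2B. The differences between genotypes use the same DMSO libraries as the DMSO comparisons above. Leaving out naive DMSO replicate 2 ended the calls of TUBB2A (adjusted p = 0.0652) and TUBB6 (0.199) against naive cells. TUBB6 was also lost without the naive 1 µM library (0.0646) or EIF4A1 KO DMSO replicate 1 (0.163). Against EIF4A2 KO cells TUBB3 was lost without EIF4A1 KO DMSO replicate 1 (0.107), EIF4A2 KO DMSO replicate 1 (0.0788) or the EIF4A2 KO 10 µM library (0.0611).

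These responses depended on the coding of the dose and on the scaling. With the dose as a slope from DMSO over 1 to 10 µM in equal steps, 0 members were called in naive cells, 2 in EIF4A2 KO cells and 0 in EIF4A1 KO cells, and 0 for the differences between genotypes. Of all rows, the equal steps called 289 in naive, 448 in EIF4A2 KO and 0 in EIF4A1 KO cells. With the doses pooled these were 1924, 2401 and 1234. With log2 of the dose as the slope, 0 members were called in all of them, and 0 of all rows. The loss of calls under a slope was thus not particular to the members. Scaling to library totals moved the median of all rows by 0.161 in naive, 0.157 in EIF4A2 KO and 0.142 in EIF4A1 KO cells, and the share of calls that were higher from 39.2% to 80.7%, 39.2% to 78.4% and 38.6% to 81.9%. On that scale TUBA1B changed by -0.19 in naive, -0.19 in EIF4A2 KO and 0.17 in EIF4A1 KO cells, all of them called. TUBA1A (0.19) and TUBB6 (0.35) were then higher in EIF4A1 KO cells and TUBB was no longer called (-0.08). TUBB3 in naive cells (-0.12), and TUBB (-0.13), TUBB6 (-0.14) and TUBG1 (-0.08) in EIF4A2 KO cells, were not called on that scale either. For the differences between genotypes the same 6 and 7 members were called. DESeq2 did not call TUBG1 in EIF4A2 KO cells, or TUBB6 for the difference from naive cells.

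**Figure D3:**
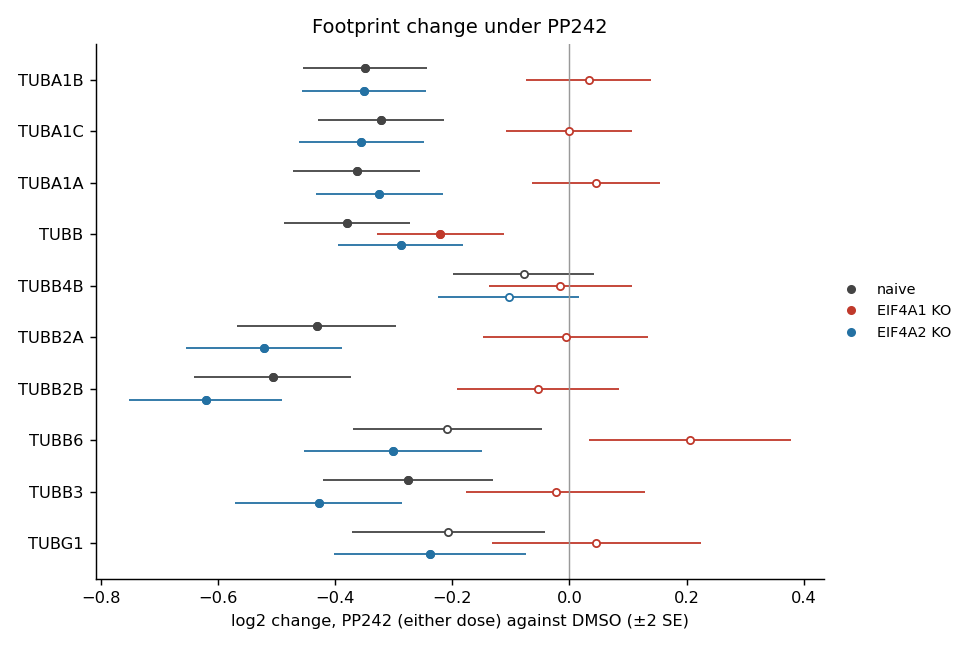
Log2 change of footprints under PP242 (1 µM and 10 µM pooled, 2 libraries) against DMSO (2 libraries) per genotype, with bars of ±2 SE. Filled points were called and open points were not. Naive and EIF4A2 KO values lie side by side below 0, and the EIF4A1 KO values of the alpha genes lie at -0.00045 to 0.04.

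In the SBP-eIF4A1 pulldown 5 of the 6 beta-tubulin mRNAs, TUBB, TUBB4B, TUBB2A, TUBB2B and TUBB3, were depleted. The 3 alpha mRNAs, TUBB6 and TUBG1 had changes of 0.01 to 0.21, and the difference between the families was not tested. Of the 10 members 6 were called, 1 higher and 5 lower, where 55.4% of 26601 rows were called. That share is close to the members' own, so the count says little and the sizes are given instead.

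TUBB had 1545 and 1554 CPM in the SBP-eIF4A1 inputs and 622 and 645 CPM in the pulldowns. The groups lay far apart, a change of -1.29 ± 0.05 (adjusted p = 1.9e-12), or 2.45-fold lower. TUBB4B went from 363 and 354 CPM to 173 and 176 (-1.04 ± 0.06). TUBB2A, TUBB2B and TUBB3 changed by -0.69 ± 0.07, -0.74 ± 0.07 and -0.74 ± 0.09. TUBA1B had 3755 and 3788 CPM in the inputs and 3715 and 4065 CPM in the pulldowns, so that the groups overlap (0.04, interval -0.06 to 0.15). TUBA1C was the member called higher, from 2330.5 and 2365 to 2609 and 2819.6 CPM (0.21 ± 0.05, adjusted p = 0.0020), and this call was lost without pulldown replicate 2 (adjusted p = 0.0523) and with library totals (0.09). TUBA1A (0.01), TUBB6 (0.09) and TUBG1 (0.14) were not called. Summed, the alpha paralogs changed by 0.09 ± 0.05 and the beta paralogs by -1.04 ± 0.05.

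In the SBP-eIF4A2 pulldown all 10 members were depleted, where 59.8% of rows were called and 30% were called lower. TUBB went from 1661 and 1628 CPM to 447 and 467 CPM (-1.85 ± 0.05, adjusted p = 3.9e-14), and TUBB4B from 448 and 432 to 158 and 138 (-1.58 ± 0.06). TUBA1B had 3633 and 3573 CPM in the inputs and 1923 and 1891 in the pulldowns, with no overlap (-0.92 ± 0.05, adjusted p = 1.1e-10). The other alpha genes changed by -0.74 (TUBA1C) and -0.92 (TUBA1A). TUBB6 (-0.46 ± 0.06) and TUBG1 (-0.49 ± 0.06) were depleted least. In both pulldowns TUBB, TUBB4B, TUBB2B, TUBB2A and TUBB3 thus had the 5 lowest values.

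Enrichment was higher with SBP-eIF4A1 than with SBP-eIF4A2 for all 10 members in the test of the difference, where 15.7% of rows were called and 10.4% in this direction. The 3 alpha genes differed most, by 0.96 ± 0.07 (TUBA1B, adjusted p = 2.4e-07), 0.95 ± 0.07 (TUBA1C) and 0.93 ± 0.08 (TUBA1A), at percentiles of 94.8 to 95.2 among all rows. TUBG1 (0.63), TUBB2B (0.62), TUBB2A (0.59), TUBB (0.56), TUBB6 (0.55), TUBB4B (0.54) and TUBB3 (0.44 ± 0.12, adjusted p = 0.0201) followed. The call of TUBB3 was lost when either SBP-eIF4A1 input, either SBP-eIF4A1 pulldown or either SBP-eIF4A2 input was left out (adjusted p = 0.0548 to 0.109). With library totals the median of all rows shifted by -0.311, and 16.7% rather than 66.3% of the calls were then higher. On that scale all 10 members stayed above 0, from 0.13 (TUBB3) to 0.65 (TUBA1B), and 6 were called.

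The inputs of the tagged lines differed for TUBB4B, which was lower with SBP-eIF4A1 (-0.30 ± 0.06, adjusted p = 0.0022), where 18.5% of rows were called. This call was lost without SBP-eIF4A1 input replicate 2 (adjusted p = 0.0514) or SBP-eIF4A2 input replicate 1 (0.0526). TUBB3 missed the threshold (-0.24 ± 0.08, adjusted p = 0.0517) but passed with library totals (0.0405), without the filter on low counts (0.0424) and over all distinct transcripts (0.0434), and the other members lay between -0.14 and 0.07. The line and the preparation of its libraries cannot be told apart.

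After Control siRNA all 10 members were strongly depleted in the SBP-eIF4A1 pulldown, the alpha genes included. TUBA1B had 5026 and 5043 CPM in the inputs and 804 and 612 CPM in the pulldowns. The change was -2.83 ± 0.19 (adjusted p = 6.2e-16), or 7.11-fold lower, and TUBA1A and TUBA1C changed by -2.74 and -2.64. TUBB went from 2314 and 2385 CPM to 348 and 254 (-2.97 ± 0.20). TUBB4B, TUBB2B, TUBB2A and TUBB3 changed by -2.08 to -1.96. TUBB6 (78.4 and 73.7 to 51.3 and 36.2 CPM, -0.80 ± 0.20) and TUBG1 (186 and 172 to 113 and 86.8 CPM, -0.84 ± 0.19) were again depleted least. Of all 26708 rows 49.3% were called and 24.1% were called lower. Enrichment differed between the replicates, for TUBB -2.73 in replicate 1 and -3.23 in replicate 2. TUBB6 was lost without pulldown replicate 2 (-0.57, adjusted p = 0.0531). With library totals the median of all rows moved by 0.469, 75.0% rather than 51.1% of the calls were higher, and TUBB6 (-0.32) and TUBG1 (-0.37) were not called.

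The same protein thus gave unlike enrichments in the experiments with and without siRNA. The difference was called for all 10 members, where 50.2% of 26116 rows were called and 23.8% were called lower. It was -2.81 ± 0.16 for TUBA1B (adjusted p = 7.1e-09), -2.79 for TUBA1C and -2.68 for TUBA1A, at percentiles of 0.911 to 1.1 among all rows. TUBB differed by -1.61 ± 0.17 and the other members by -1.24 (TUBB2B) to -0.83 (TUBB6). With library totals the median of all rows moved by 0.528, the share of calls that were higher from 52.6% to 75.3%, and 6 members were called: the 3 alpha genes (-2.28 to -2.15), TUBB (-1.08), TUBB2A (-0.70) and TUBB2B (-0.71). The siRNA transfection and everything else that separates the experiments cannot be told apart.

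In the inputs after LARP1 siRNA none of the 10 members was called by edgeR, where 138 of 26708 rows (0.517%) were and 3224 had an unadjusted p below 0.05. DESeq2 called none of them either. TUBA1B had 5026 and 5043 CPM after Control siRNA and 4705 and 3614 CPM after LARP1 siRNA, lower in both libraries (-0.28 ± 0.18, interval -0.63 to 0.08). TUBB stood at 2314 and 2385 against 2029 and 1537 CPM (-0.40 ± 0.18, adjusted p = 0.357). TUBB2B was higher in both LARP1 siRNA libraries, 226 and 234 against 201 and 183 CPM, and was not called either (0.26 ± 0.19). The LARP1 siRNA inputs had the largest chi-square per degree of freedom of all groups, given above.

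The LARP1 siRNA pulldown was 1 library, so its values have no replicate check and no test. TUBA1B had 516 CPM in it, below both Control siRNA pulldowns (804 and 612), and TUBB had 236 CPM against 348 and 254. Relative to their own inputs, TUBA1B stood at -3.00 after LARP1 siRNA, between the Control siRNA replicates at -2.64 and -3.04. The members' median difference in enrichment was -0.16, beside -0.05 for all rows, with 3 members above 0 and 7 below. It ranged from -0.41 (TUBB6) to 0.18 (TUBG1). Of the 10 members 5 lay outside the range of the Control siRNA replicates. A single library often falls outside the range of 2 others, and the share of all rows that did was not computed. The count therefore says little. TUBB6 (-1.20 against -0.61 and -1.02) lay below both, and TUBG1 (-0.65 against -0.71 and -0.99) above both. TUBA1C (-2.823), TUBB2A (-2.182) and TUBB2B (-2.293) lay just below the lower replicate, at -2.811, -2.177 and -2.267.

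**Figure D4:**
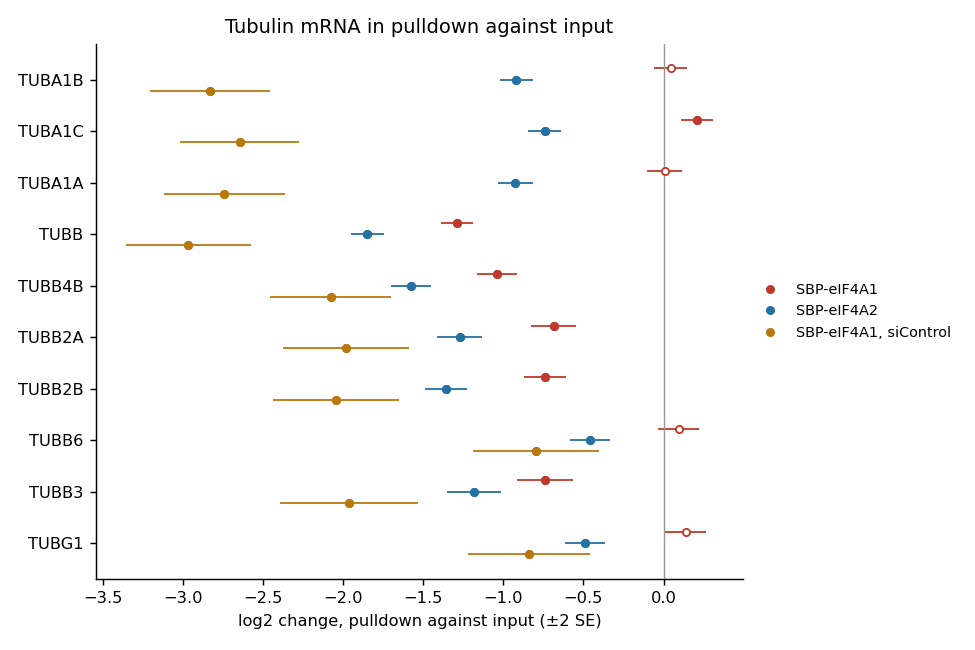
Log2 change of tubulin RNA in pulldown against input (2 libraries each) for SBP-eIF4A1, SBP-eIF4A2 and SBP-eIF4A1 after Control siRNA, with bars of ±2 SE. Filled points were called and open points were not. The alpha genes lie at 0.01 to 0.21 with SBP-eIF4A1, at -0.92 to -0.74 with SBP-eIF4A2 and at -2.83 to -2.64 after Control siRNA.

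Correlations across all 31 libraries were taken on log2 levels scaled to library totals, without TMM factors, after centring within each experiment. Such centring keeps the differences between inputs and pulldowns, which for every member were largest after Control siRNA. On that scale the alpha genes moved almost as 1 (Pearson's r with TUBA1B 0.998 for TUBA1C and 0.999 for TUBA1A). TUBB2A and TUBB2B were as close to each other (0.998). TUBB correlated with TUBA1B at 0.901, TUBB2A at 0.883, TUBB3 at 0.850, TUBB4B at 0.797, TUBG1 at 0.684 and TUBB6 at 0.631. The lowest value between any members was 0.337, for TUBB6 and TUBG1. Of 16200 other rows the 2 most like TUBA1B were ENST00000379341.9 (0.986) and ENST00000258424.3 (0.982), which the files do not pair with gene names. These correlations describe libraries that share conditions and depth, and among paralogs they may include shared reads, so no p is given.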

How the data were processed

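Ribosome profiling, RNA-seq and RNA pulldown of HEK293 T-REx cells gave 31 libraries. The authors deposited raw counts per versioned Ensembl transcript, beside a second column taken as codons, the other measure. Per the submitters' processing notes, CASAVA 1.8, STAR 2.7.0a and hg38 were used; the counting tool and annotation release are not given in the sources used here.

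Identical count vectors were collapsed (94734 transcripts to 77343) and neighbouring isoforms (within 10 rows, r at least 0.9 on log2 counts with a pseudocount of 0.5) reduced to 35500 rows, keeping the members first. Each experiment was fitted over all rows with edgeR 4.0.16 (R 4.3.3): TMM scaling, filterByExpr with a minimum count of 10, quasi-likelihood test, two-sided, Benjamini-Hochberg adjustment, called under 0.05. All 10 members passed the filter in every comparison. Alternatives included DESeq2 1.42.0, other scalings, no filter, all distinct transcripts, paralogs summed, dose slopes and leaving out each library. The scripts were run on simulated counts with a set size of change and a set spread between libraries. That run checks the code only and says nothing on the calls given here. All 10 members were named, and the members and lists were chosen with earlier results of these data known. A planned list of other tubulin pathway genes, and cell type markers, were not used, since no table at hand pairs transcripts with symbols.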

Additional observations from a re-analysis of the deposited data

Results flagged for a closer look

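Each result here is a log2 difference between 2 groups that passed edgeR's quasi-likelihood test of the difference itself. With library totals, 6 of the 10 members were called for SBP-eIF4A1 minus SBP-eIF4A2, and 6 for Control siRNA minus no siRNA. Of all rows, 15.7% and 50.2% were called in these comparisons with TMM. In the former, the call of TUBB3 was also lost when single libraries were left out.

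The log2 change under PP242 in EIF4A1 KO cells was set against that in the other genotypes. A positive difference means a smaller fall, or a rise, in EIF4A1 KO cells. The difference from naive cells was 0.38 for TUBA1B, 0.32 for TUBA1C, 0.41 for TUBA1A, 0.42 for TUBB2A, 0.45 for TUBB2B and 0.41 for TUBB6. From EIF4A2 KO cells it was 0.38 for TUBA1B, 0.36 for TUBA1C and 0.37 for TUBA1A. For TUBB2A it was 0.52, for TUBB2B 0.57, for TUBB6 0.51 and for TUBB3 0.40. All of these rest on 2 DMSO and 2 PP242 libraries per genotype, and none passed with the dose as a slope. Of all rows, equal steps called 2 against naive and 1 against EIF4A2 KO cells, and log2 dose called 0.

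Enrichment with SBP-eIF4A1 exceeded that with SBP-eIF4A2 by 0.96 for TUBA1B, 0.95 for TUBA1C, 0.93 for TUBA1A, 0.56 for TUBB, 0.54 for TUBB4B, 0.59 for TUBB2A, 0.62 for TUBB2B, 0.55 for TUBB6, 0.44 for TUBB3 and 0.63 for TUBG1.

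The SBP-eIF4A1 enrichment after Control siRNA minus that without siRNA was -2.81 for TUBA1B, -2.79 for TUBA1C, -2.68 for TUBA1A, -1.61 for TUBB, -0.98 for TUBB4B, -1.23 for TUBB2A, -1.24 for TUBB2B, -0.83 for TUBB6, -1.16 for TUBB3 and -0.91 for TUBG1.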

How the results depend on the processing

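Groups held at most 2 libraries, and footprint libraries were the shallowest; the part of depth in the precision was not tested. DESeq2's size factors in the same test changed no call of a member. Values below are members called unless named otherwise. Library totals, an alternative added after the data were seen, gave 2 for DMSO footprints of EIF4A2 KO against naive cells (main 1), 3 for PP242 in EIF4A1 KO cells (1), 6 for SBP-eIF4A1 minus SBP-eIF4A2 (10), 2 for the inputs of the tagged lines (1) and 6 for Control siRNA minus no siRNA (10). The dose in equal steps gave 0 for PP242 in naive cells (7), 0 in EIF4A1 KO (1), 2 in EIF4A2 KO (9) and 0 for EIF4A1 KO minus naive (6) and minus EIF4A2 KO (7), and log2 dose gave 0 in each of these 5. For the inputs of the tagged lines no filter gave 2 and all distinct transcripts gave 2. Leaving out 1 library at a time gave 5 to 9 for DMSO footprints of EIF4A1 KO against naive cells, 0 to 1 for EIF4A2 KO against naive cells, 1 to 4 for footprints beyond RNA, 0 to 1 for PP242 in EIF4A1 KO cells and 0 to 1 for the inputs. The untested LARP1 siRNA minus Control siRNA median went from -0.34 (without Control siRNA pulldown replicate 2) to 0.04 (without replicate 1). With an arm of 1 library, that library is assumed to vary like the others.

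With paralogs summed, the beta row took the sign opposite to the single member for TUBB4B and TUBB6 in RNA (-0.19), TUBB4B in EIF4A1 KO against EIF4A2 KO (-0.24) and TUBB6 in the SBP-eIF4A1 pulldown (-1.04), since the sum is led by other members. Of 2430 values of members under alternatives, 101 changed sign, 4 of them with a call on either side, and those are the 4 just given. The median log2 translation efficiency relative to all rows cannot move with library totals, since rescaling a library shifts all its rows alike. That setting therefore tests nothing for this result.

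The labels do not say that replicate numbers mark shared cultures, and each comparison holds 2 pairs. Deviations of same-numbered libraries correlated at -0.123 to 0.0301 in 6 pairs of groups, at -0.121 between Control and LARP1 siRNA inputs and at 0.405 between Control siRNA inputs and pulldowns. With the number as a replicate block, the inputs of the tagged lines gave 2 (TUBB3 added, adjusted p = 0.0269) and LARP1 siRNA inputs gave 1 (TUBB, -0.42, adjusted p = 0.0186), TUBB4B in RNA was lost (adjusted p = 0.0577), and no other member's call changed. The PP242 libraries carry no number.

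Over all rows, DESeq2 called 5441 for RNA (edgeR 9392), 2208 (4510), 523 (1596) and 2267 (4487) for the 3 DMSO comparisons, 1132 (1924), 743 (1234) and 1462 (2401) for PP242 in naive, EIF4A1 KO and EIF4A2 KO cells, and 370 (138) for LARP1 siRNA inputs. All distinct transcripts gave 2.81 to 4.48 times as many, over more rows tested, leaving out a library 0.130 to 2.86 times and the replicate block up to 22.8 times (3153 against 138 for LARP1 siRNA inputs). Equal dose steps gave at most 0.187 times as many, and log2 dose gave 0.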
